A study of Mus musculus with 18 samples.

Results

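Livers of diabetic mice that had received gut microbiota from donors dosed with alginate oligosaccharide were compared with livers of diabetic mice that had received microbiota from untreated donors. Alginate oligosaccharide (AOS) is a short sugar chain cut from the alginate of brown seaweed. Fecal microbiota transplantation (FMT) moves the gut microbes of 1 animal into another, and here the material was luminal content of the small intestine, pooled over the donors of a group and given by mouth. The A10-FMT group comprised 3 libraries from male ICR mice made diabetic with streptozotocin (STZ), a toxin of pancreatic beta cells, and then given microbiota of donors dosed with AOS at 10 mg/kg. The Con-FMT group comprised 3 libraries from male ICR mice made diabetic in the same way and given microbiota of donors dosed with water. All 6 were 10 weeks of age at sampling, and AOS itself was never given to them. Because donor content was pooled, each group received 1 donor mixture, and the recipients' own microbes at the time of transplantation are not described by the labels.

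The 6 libraries belong to a series of 18 in 6 groups of 3. Healthy controls (Con) and diabetic mice without a transplant (STZ) are quoted below as reference values, and healthy mice dosed with AOS (AOS) and diabetic mice dosed with AOS (STZ+AOS) are left aside. Expression is given as RPKM, reads per kilobase of gene length, scaled to the number of mapped reads in the library. Genes at 1 RPKM or more in 3 or more of the 6 libraries were taken, which left 10302 of 19057 listed genes (54.1%). The labels number the libraries within a group and name no animals, so each library is called a mouse here and p-values measure the spread between these libraries.

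The liver receives the blood that drains the gut, and bile acids, short fatty acids, bacterial cell wall products and absorbed nutrients reach hepatocytes first. Hepatocytes adjust the synthesis of cholesterol through the SREBP2 factor, which is released from the endoplasmic reticulum when membrane sterol is low, and the synthesis of fatty acids through SREBP1c and insulin. Many liver genes also follow the circadian clock, in which the factors ARNTL (BMAL1) and CLOCK switch on their own inhibitors of the PER, CRY and CIART families together with the output factors DBP and TEF, while NR1D1 and NR1D2 (REV-ERB) repress Arntl.

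Promoter sequences of 4 genes are shown because these genes stand for both groups whose members differed most often between the transplants, the circadian clock and cholesterol synthesis. They are RefSeq sequences of build GRCm38.p6, written 5′ to 3′ on the strand of the gene and ending at or just before the annotated start. In the promoter of Ciart, a repressor of ARNTL and CLOCK, at chr3:95882252-95882478 on the minus strand, capitals mark the E-box CACGTG. In the promoter of Per3, a period family member, at chr4:151044666-151044915 on the minus strand, capitals mark the D-box TTANGTAA, the motif of the DBP and TEF family. In the promoters of Hmgcs1, which joins acetyl units at the start of the sterol pathway, at chr13:119690101-119690350 on the plus strand, and of Sc5d, a late sterol desaturase, at chr9:42264301-42264550 on the minus strand, capitals mark the CCAAT box, here in its reverse complement.
Ciart: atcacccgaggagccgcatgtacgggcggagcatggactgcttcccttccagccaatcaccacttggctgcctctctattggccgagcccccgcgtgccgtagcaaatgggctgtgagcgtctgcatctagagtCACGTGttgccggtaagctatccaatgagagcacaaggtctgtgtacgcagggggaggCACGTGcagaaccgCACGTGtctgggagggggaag
Per3: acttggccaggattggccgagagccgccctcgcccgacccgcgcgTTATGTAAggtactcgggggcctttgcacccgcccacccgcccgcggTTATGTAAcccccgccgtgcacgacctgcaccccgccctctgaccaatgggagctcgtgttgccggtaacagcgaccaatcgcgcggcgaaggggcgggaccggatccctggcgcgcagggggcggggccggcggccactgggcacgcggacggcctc
Hmgcs1: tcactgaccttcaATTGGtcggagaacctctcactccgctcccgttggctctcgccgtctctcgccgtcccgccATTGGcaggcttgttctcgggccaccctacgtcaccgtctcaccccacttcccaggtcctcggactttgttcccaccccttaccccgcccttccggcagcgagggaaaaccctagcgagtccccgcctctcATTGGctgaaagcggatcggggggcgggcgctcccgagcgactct
Sc5d: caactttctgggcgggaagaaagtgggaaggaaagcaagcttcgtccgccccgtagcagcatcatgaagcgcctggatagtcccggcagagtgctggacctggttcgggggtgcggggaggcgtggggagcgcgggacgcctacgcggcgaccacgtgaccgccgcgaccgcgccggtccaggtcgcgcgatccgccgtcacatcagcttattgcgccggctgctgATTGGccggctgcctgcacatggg

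Motifs were searched on both strands of the 250 bases before each start, and a gene with several starts was counted by the one holding most matches. Ciart held 3 E-boxes, the first of them 116 bases before the start, and Per3 held 2 D-boxes. An E-box was found in 4 of the 15 tested clock genes with a promoter sequence, against 10.1% of the 8210 tested genes with one, and a D-box in 1 of 15, against 1.83%. The CCAAT box was found in 16 of 17 cholesterol synthesis genes with a sequence, against 40.8% of tested genes. The core of the sterol regulatory element, CACNCCA, was found in 3 of these 17, against 17.8%. These matches describe letters in a window and say nothing on whether a factor binds there.

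The 6 libraries were alike in their totals. The sum of RPKM ran from 675600 to 712798 in A10-FMT and from 673423 to 709679 in Con-FMT, an exact two-sided permutation test giving p = 1. The number of genes at 1 RPKM or more ran from 10035 to 10301 and from 10064 to 10336, respectively, with p = 0.7 in the same exact test, whose smallest possible p is 0.1. The number of reads behind each library is unknown, since RPKM does not keep it. All 10 hepatocyte markers were above 0 in every library, and their summed level was 54917 to 63316 RPKM in A10-FMT and 46898 to 56913 RPKM in Con-FMT. In bulk tissue, fewer cells of a type and less RNA per cell cannot be told apart. Con-FMT mice 1 and 2 lay at opposite ends. On the first principal component, which held 40.9% of the variance, they stood at -24.3 and 21.6, and the other 4 mice between -5.30 and 8.29. On the second, which held 19.3%, A10-FMT mice 1 to 3 stood at -6.72, -11.4 and -10.45, and Con-FMT mice at 9.33, 9.46 and 9.77. The groups did not overlap there. Con-FMT mice 1 and 2 were farthest apart of all 15 pairs, with a Euclidean distance over the log2 values of all tested genes of 46.7. It was 36.2 and 30.5 for the other pairs within Con-FMT, 26.4 to 30.7 within A10-FMT and 28.8 to 40.01 between the groups. Mouse 1 was the lowest of the 6 in all 26 tested male-biased genes, and mouse 2 in 20 of 22 cholesterol synthesis, 20 of 30 cytochrome P450, 27 of 34 respiratory chain and 34 of 40 ribosomal protein genes. For a number of lists, results are therefore also given without 1 of these mice. Among the reference mice, STZ mouse 3 kept 19.2% of its RPKM in Mup genes (major urinary proteins, abundant in male liver) against 0.0327% and 0.0274% in the other STZ mice, and Con mouse 3 lay between the other 2 Con mice in 93.2% of the 528 genes that varied at least 1.5-fold among them. Whether Con mouse 3 is an independent library was not tested, so the Con reference may rest on 2 libraries. STZ values are given mouse by mouse, and Con values by mouse or by range.

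Across the transcriptome most genes differed little between the livers of the transplanted groups. No gene passed an adjusted p of 0.05 (limma on log2(RPKM + 1), Benjamini-Hochberg over all 10302 genes, 0% called), and the smallest adjusted p was 0.132. Limma without its mean-variance trend also called 0 genes. Unadjusted p-values under 0.05 were reached by 485 genes (4.71%), 197 of them higher in A10-FMT (1.91%) and 288 lower (2.8%). This direction also depended on scaling, with 290 higher and 234 lower after median-ratio scaling, 277 and 231 after quantile normalization, and 309 and 204 after median centring. The median log2 difference, A10-FMT minus Con-FMT, was -0.02, and the central 90% of genes lay between -0.24 and 0.23. The 95% interval of the difference lay wholly within -1 to 1 on the log2(RPKM + 1) scale for 96.5% of genes. It lay within -0.5 to 0.5 for 79.3%. On that scale the comparison thus bounded the difference closely for most genes, and for the remainder it did not. The scale shrinks differences of low genes, so their fold changes were bounded less closely.

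Genes whose mice did not overlap between the groups were counted as a description. All 3 A10-FMT values lay above all 3 Con-FMT values in 305 genes (2.96%) and below them in 621 genes (6.03%), so 32.9% of these genes were on the higher side. This split depended on scaling. After median-ratio scaling the counts were 547 and 498 (52.3% higher), after quantile normalization 489 and 509 (49%), and after median centring 586 and 435 (57.4%), so the excess of lower genes was not kept under these scalings. Deviations from the group mean correlated weakly between mice with the same number, at 0.119 to 0.295. A10-FMT mouse 3 and Con-FMT mouse 1 reached 0.117. With the number as a block, a choice that rests on these same data, 870 genes were higher and 1647 lower in all 3 numbered pairs. With this block 0 genes were called. When Con-FMT mouse 1 was left out, 897 genes (8.71%) reached an unadjusted p under 0.05, 564 higher and 333 lower, and 1 gene was called. That gene was Hist1h2br, a histone H2B gene, with an adjusted p of 0.00399 in limma. Leaving out any other mouse gave between 342 and 577 genes at an unadjusted p under 0.05 and called none.

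**Figure D1:**
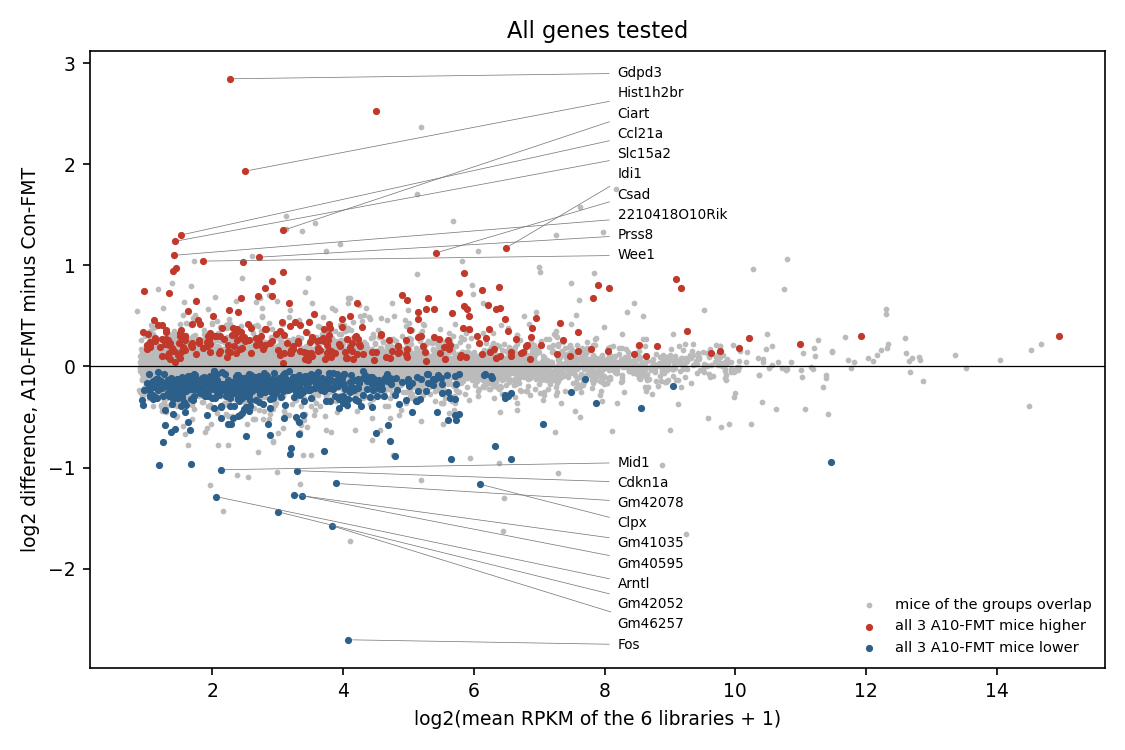
Each point is a gene, with log2 of its mean RPKM over the 6 libraries plus 1 on the horizontal axis and the log2 difference, A10-FMT minus Con-FMT, on the vertical axis. Red and blue mark the 305 higher and 621 lower genes whose mice did not overlap, and the 20 labelled genes had a difference of 1 or more in size without overlap, chosen by p among those with a mean of at least 2 RPKM in the higher group. Most genes lie close to the zero line.

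Genes of the circadian clock held a larger share of non-overlapping members than the genes as a whole. Of 21 genes on the list 19 were tested, with Npas2 and Bhlhe41 under the filter. Higher in all 3 A10-FMT mice were 7 of the 19, and 2 were lower, where 2.96% and 6.03% of all genes were. Of the 19, 8 were higher and 3 lower with an unadjusted p under 0.05, where 1.91% and 2.8% of all genes were. None was called after adjustment. With 12 libraries in the model 1 was higher and 1 lower by that measure, where 0.806% and 2.03% of all genes were. With 18 libraries 3 were higher and 1 lower, where 0.757% and 1.47% of all genes were. The median over the list was 0.26, but members lay on both sides.

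Arntl, which encodes the positive factor BMAL1, had the smallest p of the list. It was 2.04, 1.42 and 0.83 RPKM in A10-FMT mice 1 to 3 and 6.17, 4.69 and 3.79 RPKM in Con-FMT mice 1 to 3. Every A10-FMT mouse was thus below every Con-FMT mouse, with a log2 difference of -1.29 (SE 0.21, limma unadjusted p = 0.000477, adjusted p = 0.718). With the replicate block, which rests on a weak pattern in these same data, its adjusted p in limma was 0.0548. This was among the smallest of all genes in that fit. Con mice held 10.1, 12.9 and 12.2 RPKM, and STZ mice 1.90, 8.07 and 9.64 RPKM.

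Clock, the partner of Arntl, was 3.89, 3.24 and 2.95 RPKM in A10-FMT against 4.73, 4.56 and 4.84 RPKM in Con-FMT, a log2 difference of -0.39 (SE 0.10). Its values did not overlap either. Nfil3, a repressor that competes with the DBP family for D-boxes, had 11.6, 8.40 and 7.49 RPKM against 13.1, 13.8 and 10.8 RPKM, so A10-FMT mouse 1 overlapped with Con-FMT mouse 3. Npas2, which can replace CLOCK, fell under the filter, at 0.08, 0.07 and 0.03 RPKM against 0.45, 0.35 and 0.15 RPKM.

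The inhibitors and output factors lay on the other side. Ciart, whose promoter is shown above, was 6.31, 11.1 and 16.6 RPKM in A10-FMT and 4.80, 2.60 and 3.54 RPKM in Con-FMT, a log2 difference of 1.35 (SE 0.32, limma unadjusted p = 0.00351, adjusted p = 0.958). Its values were highest in A10-FMT mouse 3 and did not overlap between the groups. In Con mice Ciart was near the limit of measurement, at 0.35, 0.36 and 0.45 RPKM, and STZ mice 1 to 3 held 26.2, 10.45 and 1.45 RPKM. Per3 was 4.2, 6.34 and 6.58 RPKM against 4.06, 2.93 and 2.57 RPKM, so A10-FMT mouse 1 exceeded Con-FMT mouse 1 only slightly.

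Dbp, the D-box activator, was 62.3, 78.7 and 80.3 RPKM in A10-FMT and 53.9, 37.9 and 27.3 RPKM in Con-FMT, with a log2 difference of 0.92 (SE 0.23). Con mice had 0.58 to 0.68 RPKM of it, far below any transplanted mouse, and STZ mice 1 to 3 had 88.0, 18.7 and 6.75 RPKM. Tef, a relative of Dbp, was 39.2, 45.2 and 58.9 RPKM against 34.6, 26.9 and 26.4 RPKM, with a log2 difference of 0.68 (SE 0.17). For Dbp both transplanted groups were thus on the same side of the healthy mice, with A10-FMT farther from them.

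Nr1d2, the REV-ERB beta repressor, was 18.8, 21.6 and 23.3 RPKM against 17.3, 14.9 and 15.6 RPKM. Usp2, a deubiquitinase under clock control, had a log2 difference of 0.94 (SE 0.30), and Wee1, a kinase that holds cells before mitosis and is a clock output in liver, 1.04 (SE 0.31), both without overlap. Cry2 had a log2 difference of 0.46 (SE 0.18) with an overlap through Con-FMT mouse 1.

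Not every clock gene took part. Nr1d1, the REV-ERB alpha repressor, was 51.3, 66.5 and 24.4 RPKM in A10-FMT and 53.2, 43.4 and 42.5 RPKM in Con-FMT, a log2 difference of -0.07 (SE 0.33). Per1, Per2, Cry1, Rora, Hlf and Bhlhe40 also overlapped between the groups. A10-FMT mouse 3 had the highest value of the 6 mice in 12 of the 19 genes and the lowest in 4. Without Con-FMT mouse 1, 11 members were higher without overlap, where 15.7% of all genes were, and 2 were lower, where 10.1% were. Such counts cannot fall when a mouse is left out. The hour at which livers were taken is not given in the sources used here.

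**Figure D2:**
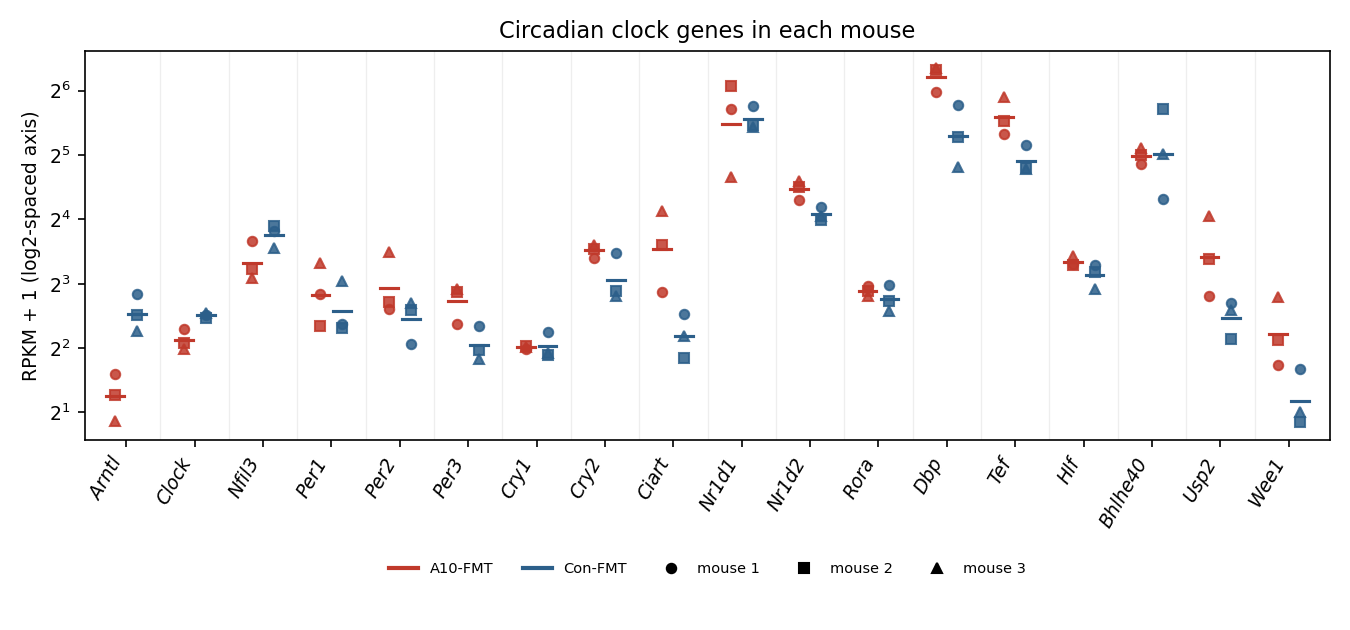
RPKM plus 1 of tested circadian clock genes is shown on a log2-spaced vertical axis, with A10-FMT in red, Con-FMT in blue, a symbol for each mouse number and a bar at the mean of the log2 values. Arntl and Clock are lower in all 3 A10-FMT mice, and Per3, Ciart, Nr1d2, Dbp, Tef, Usp2 and Wee1 are higher in all 3.

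Genes of cholesterol synthesis had higher values in A10-FMT, with 1 Con-FMT mouse setting part of the size. All 22 listed enzymes were tested, 21 had a log2 difference above 0, and the median was 0.59, against -0.02 for all genes. Higher without overlap were 9 (against 2.96% of all genes). On the higher side 9 reached an unadjusted p under 0.05 (against 1.91%), and none did on the lower side. None was called after adjustment.

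Idi1, the isomerase that makes the building block of the isoprenoid chain, had the largest difference. Its values were 105, 154 and 105 RPKM in A10-FMT and 79.9, 30.7 and 58.6 RPKM in Con-FMT, a log2 difference of 1.17 (SE 0.33, limma unadjusted p = 0.00925, adjusted p = 0.997). Con mice ranged from 37.0 to 43.2 RPKM and STZ mice 1 to 3 held 95.5, 90.9 and 42.5 RPKM, so all A10-FMT mice were above both reference groups.

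Along the chain that follows, Fdps, the farnesyl diphosphate synthase, was 253, 312 and 334 RPKM against 208, 113 and 210 RPKM, with a log2 difference of 0.80 (SE 0.25). Sqle, the squalene epoxidase and a control point of the pathway, was 62.7, 64.7 and 69.4 RPKM against 55.4, 21.9 and 49.5 RPKM, with a log2 difference of 0.73 (SE 0.31). In both genes Con-FMT mouse 2 was far below the other mice of its group, and the groups did not overlap.

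Among the late steps, Nsdhl, which removes a methyl group with its partners, was 78.1, 85.6 and 94.5 RPKM against 59.4, 36.3 and 59.4 RPKM, a log2 difference of 0.75 (SE 0.20, limma unadjusted p = 0.00587, adjusted p = 0.958). Sc5d, whose promoter is shown above, was 135, 155 and 138 RPKM against 117, 102 and 89.0 RPKM, with a log2 difference of 0.48 (SE 0.12). Dhcr7, the last reductase, was 61.3, 76.4 and 71.8 RPKM against 56.6, 39.8 and 51.9 RPKM. These 3 genes did not overlap. Msmo1, Acat2 and Pmvk were also higher without overlap, with log2 differences of 0.78, 0.57 and 0.57.

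Hmgcs1, whose promoter is shown above, was 236, 234 and 216 RPKM in A10-FMT and 240, 77.4 and 163 RPKM in Con-FMT, and the groups overlapped through Con-FMT mouse 1. Ggps1 and Lbr, which also serve prenylation and the nuclear envelope, had log2 differences of -0.02 and 0.01.

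Con-FMT mouse 2 had the lowest value of all 6 mice in 20 of the 22 genes, and A10-FMT mouse 3 the highest in 13. Without Con-FMT mouse 2 the median of the list was 0.33 with 9 members higher without overlap, where 5.27% of all genes were. Without Con-FMT mouse 1 it was 0.78 with 20, where 15.7% of all genes were. After scaling 14 or 15 members were higher with an unadjusted p under 0.05, where 2.69% to 3% of all genes were. With 12 libraries in the model 2 were (0.806% of all genes), and with 18 libraries 1 was (0.757%). Without A10-FMT mouse 3 such members numbered 5 (1.21% of all genes), and without Con-FMT mouse 1 they numbered 17 (5.47%). The direction was the same in each of these fits. Summed over the list, A10-FMT mice held 2104, 2326 and 2519 RPKM and Con-FMT mice 1976, 1099 and 1677 RPKM. Con mice held 1463, 1924 and 1735 RPKM. STZ mice 1 to 3 held 2521, 1757 and 896 RPKM, so STZ mouse 1 was level with the highest A10-FMT mouse.

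**Figure D3:**
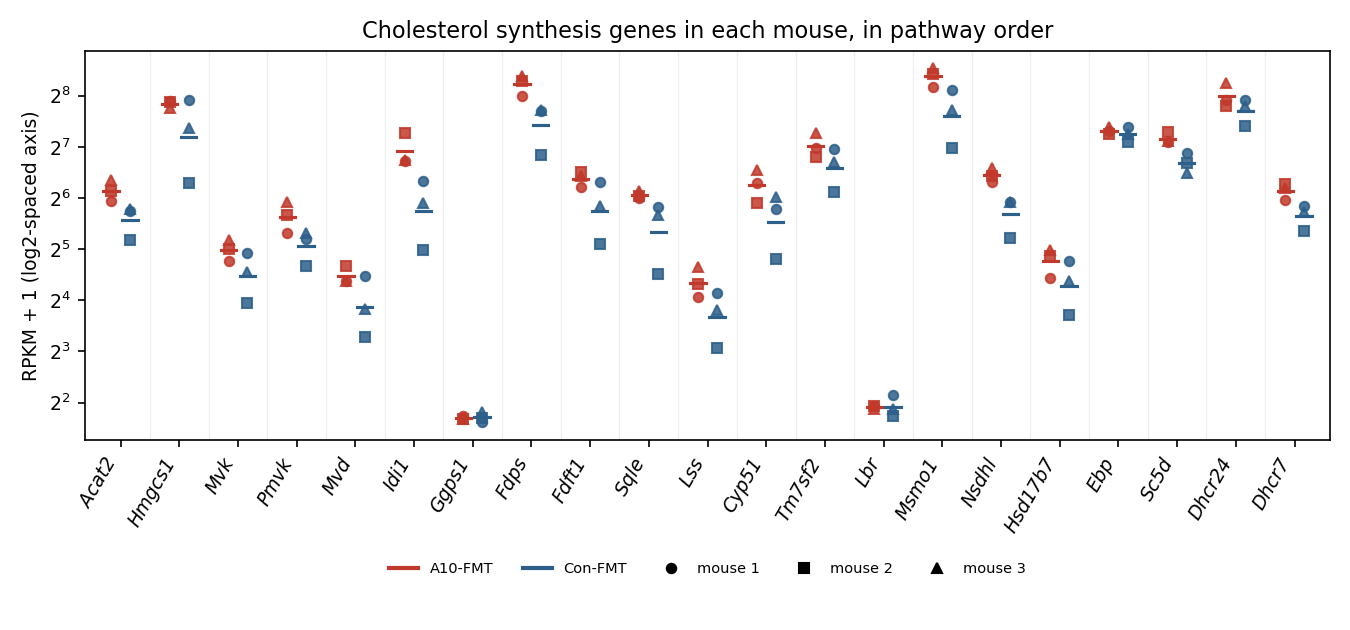
RPKM plus 1 of cholesterol synthesis genes in pathway order is shown on a log2-spaced vertical axis, with A10-FMT in red, Con-FMT in blue, a symbol for each mouse number and a bar at the mean of the log2 values. Red bars are above blue bars in every gene shown but Ggps1, and the blue square of Con-FMT mouse 2 is the lowest point in every gene shown but Ggps1 and Sc5d.

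Regulators of sterol supply did not move as a group. Of 20 tested, 2 were higher and 1 lower without overlap, where 2.96% and 6.03% of all genes were. The median was -0.03. Srebf2, which encodes SREBP2, was 16.2, 15.5 and 16.5 RPKM against 20.2, 10.6 and 14.7 RPKM, so the Con-FMT mice enclosed the A10-FMT mice. Insig1, an SREBP2 target, had a log2 difference of 0.25 (SE 0.16) with overlap. Stard4, a sterol carrier, had a log2 difference of 0.47 (SE 0.14) without overlap.

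Insig2, which retains SREBP in the endoplasmic reticulum and is lowered by insulin in liver, was on the other side. It was 85.7, 68.1 and 44.7 RPKM in A10-FMT and 141, 115 and 111 RPKM in Con-FMT, a log2 difference of -0.92 (SE 0.23, limma unadjusted p = 0.00482, adjusted p = 0.958). Con mice held 109 to 160 RPKM, so Con-FMT and not A10-FMT lay within the healthy range for this gene. STZ mice 1 to 3 held 52.9, 148 and 167 RPKM.

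Fatty acid synthesis showed smaller differences. Of 25 genes tested 5 were higher without overlap and none was lower, where 2.96% and 6.03% of all genes were. The median was 0.19. Acss2, which activates acetate, was 60.5, 69.5 and 76.7 RPKM against 46.5, 46.3 and 42.1 RPKM, a log2 difference of 0.60 (SE 0.11, limma unadjusted p = 0.000791, adjusted p = 0.718). Its groups were well apart, with Con mice spreading from 51.1 to 146 RPKM.

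Elovl6, which lengthens palmitate, was 16.3, 18.9 and 22.5 RPKM against 13.1, 13.7 and 12.8 RPKM, a log2 difference of 0.50 (SE 0.12). Dgat2, Hsd17b12 and Slc25a1, which serve triglyceride synthesis, chain elongation and citrate export, had smaller log2 differences of 0.26, 0.23 and 0.21 without overlap. Fasn, Acaca and Acly, the central enzymes of the pathway, overlapped, with log2 differences of 0.32 (SE 0.20), 0.24 (SE 0.13) and 0.15 (SE 0.09).

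Scd1, the stearoyl-CoA desaturase, varied too much for a comparison, at 127, 211 and 63.1 RPKM in A10-FMT and 25.6, 406 and 86.0 RPKM in Con-FMT. Srebf1 was 43.0, 44.2 and 39.3 RPKM against 33.1, 80.3 and 33.4 RPKM. Its mean was higher in Con-FMT through mouse 2 alone. The desaturases Fads1 and Fads2 had log2 differences of -0.02 (SE 0.15) and 0.21 (SE 0.23), and none of the 20 tested genes of polyunsaturated fatty acid handling was free of overlap. Without Con-FMT mouse 2, 10 lipogenic genes were higher without overlap, where 5.27% of all genes were, and without A10-FMT mouse 2, 8 were, where 7.42% were. In 3 of the 6 fits that leave out a mouse 1 lipogenic gene was lower without overlap. With the replicate block 9 were higher in all 3 pairs, where 8.44% of all genes were, and 1 was lower. Higher with an unadjusted p under 0.05 were 4, where 1.91% of all genes were. There were 2 without A10-FMT mouse 3 (1.21% of all genes) or without Con-FMT mouse 3 (1.36%). With 12 libraries in the model there was 1 (0.806%), and with 18 also 1 (0.757%).

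The largest single differences stood outside these lists. Gdpd3, a lysophospholipase D that releases fatty acyl lipid mediators, was 14.2, 3.57 and 5.14 RPKM in A10-FMT. In Con-FMT it was 0.15 RPKM in mouse 1 and was listed at 0 in mice 2 and 3. The log2(RPKM + 1) difference was 2.84 (SE 0.40, limma unadjusted p = 0.000157, adjusted p = 0.539), the third smallest p of all genes.

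Con mice held 0.07, 0 and 0.20 RPKM of Gdpd3 and STZ mice 11.8, 19.3 and 1.05 RPKM. Con-FMT mice were therefore at the level of the healthy mice, and A10-FMT mice were above them. A10-FMT mice 2 and 3 lay within the STZ range only through STZ mouse 3, the mouse with the high Mup share. Gdpd3 lies on chromosome 7 from 126766334 to 126775649 on the plus strand (GENCODE M21, GRCm38).

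The uncharacterised gene 2210418O10Rik had the smallest p of all. It was 2.84, 2.49 and 2.53 RPKM in A10-FMT and 0.65, 0.57 and 0.86 RPKM in Con-FMT, a log2 difference of 1.10 (SE 0.11, limma unadjusted p = 1.28e-05, adjusted p = 0.132). Levels were low, and Con mice spread over the whole range from 0 to 2.82 RPKM. The gene lies on chromosome 2 from 176226569 to 176240328 on the plus strand.

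Other genes higher by 1 or more on the log2 scale without overlap were few. Slc15a2, a peptide transporter that also takes up bacterial di- and tripeptides, was 3.60, 2.36 and 2.17 RPKM against 0.07, 0.34 and 1.61 RPKM. Ccl21a, a chemokine for T cells and dendritic cells, was 2.22, 4.48 and 2.40 RPKM against 0.10, 1.83 and 0.29 RPKM. Prss8, a membrane serine protease, was 5.13, 5.65 and 13.6 RPKM against 3.13, 2.30 and 3.61 RPKM. Slc15a2 and Ccl21a were at low level in every mouse, while Prss8 reached 13.6 RPKM in A10-FMT mouse 3.

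Csad, the enzyme that commits cysteine to taurine and so serves bile acid conjugation, was expressed more strongly. It was 57.9, 61.2 and 48.9 RPKM in A10-FMT and 12.2, 29.3 and 43.1 RPKM in Con-FMT, a log2 difference of 1.12 (SE 0.40, limma unadjusted p = 0.0239, adjusted p = 0.999). Con mice held 129, 148 and 140 RPKM and STZ mice 14.6, 14.4 and 14.8 RPKM. Every transplanted mouse but Con-FMT mouse 1 was thus between the diabetic and the healthy mice, and without Con-FMT mouse 1 the log2 difference was 0.63.

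Hist1h2br was 6.49, 8.33 and 6.69 RPKM in A10-FMT and 6.33, 0.11 and 0.19 RPKM in Con-FMT. Con-FMT mouse 1 thus stood with the A10-FMT mice, while Con mice held 7.56, 4.72 and 8.99 RPKM and STZ mice 4.24, 3.27 and 10.2 RPKM. The low values were those of Con-FMT mice 2 and 3. As a histone gene in a family of near-identical copies its count is uncertain, and histone messages mostly lack the tail by which these libraries were selected.

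On the lower side, Clpx, which unfolds proteins for the mitochondrial ClpP protease, had the highest level. It was 51.9, 44.1 and 27.1 RPKM in A10-FMT and 130.5, 84.4 and 66.3 RPKM in Con-FMT, a log2 difference of -1.16 (SE 0.30, limma unadjusted p = 0.00574, adjusted p = 0.958). Con mice held 99.1, 110 and 104 RPKM, so A10-FMT mice were below the healthy range and Con-FMT mice around it. STZ mice 1 to 3 held 41.4, 99.5 and 118 RPKM, which spread over the values of both transplanted groups. Mid1, a ubiquitin ligase, had a log2 difference of -1.02 (SE 0.26).

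The predicted genes Gm46257, Gm42078, Gm40595, Gm41035 and Gm42052 made up 5 of the 10 genes named on the lower side. Gm46257 was 11.8, 3.46 and 4.40 RPKM against 27.1, 13.2 and 19.4 RPKM. Gm42078 was 10.6, 5.18 and 8.51 RPKM against 27.0, 11.3 and 20.9 RPKM. A10-FMT mouse 2 was the lowest of the 6 mice in both. With the replicate block, a choice that rests on these same data, Gm40595 and Gm42078 reached an adjusted p of 0.0548 in limma. Arntl and Cdkn1a shared this value, and none of these genes was called.

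Fos, an immediate early gene of the AP-1 family, had a log2 difference of -2.70 with an SE of 1.14. It was 0.71, 0.63 and 1.19 RPKM in A10-FMT and 1.31, 84.4 and 7.54 RPKM in Con-FMT, so most of the difference came from Con-FMT mouse 2. Egr1, another immediate early gene, was 70.8 RPKM in that mouse and 2.09 to 8.83 RPKM in the other 5.

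Lgalsl, a galectin-like gene, and Slc46a3, a lysosomal transporter, had the second and the fourth smallest p of all genes, with adjusted p-values of 0.539 and 0.718 in limma, and both were named after their values were seen. Lgalsl was 3.49, 3.63 and 3.06 RPKM against 6.55, 6.17 and 5.51 RPKM, a log2 difference of -0.69 (SE 0.09). Slc46a3 was 38.4, 41.5 and 42.6 RPKM against 27.3, 26.8 and 29.5 RPKM, a log2 difference of 0.54 (SE 0.08). In both genes the mice of a group lay close together.

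The p53 targets were mixed, with 12 members above 0 and 13 below. Of 25 tested genes of the p53 and apoptosis list 5 were lower and 1 higher without overlap (6.03% and 2.96% of all genes), while the median of the list was -0.05. Cdkn1a, the cell cycle inhibitor p21, was 6.55, 4.49 and 5.23 RPKM in A10-FMT and 15.0, 9.92 and 11.6 RPKM in Con-FMT, a log2 difference of -1.03 (SE 0.17, limma unadjusted p = 0.000435, adjusted p = 0.718). Con mice held 11.3, 11.9 and 12.1 RPKM, so it was A10-FMT that lay below the healthy level. STZ mice 1 to 3 held 9.12, 20.0 and 37.1 RPKM.

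Phlda3, a p53-induced inhibitor of AKT, was 2.56, 2.22 and 3.02 RPKM against 5.35, 3.61 and 3.54 RPKM, while Con mice held 0.19 to 0.28 RPKM. Gdf15, a stress hormone, was 4.52, 5.85 and 6.25 RPKM against 9.78, 16.3 and 6.86 RPKM. Both genes did not overlap, but Gdf15 in A10-FMT mouse 3 and Con-FMT mouse 3 was close. Aen, an exonuclease of apoptosis, and Ccng1, cyclin G1, made up the 5 with log2 differences of -0.29 and -0.22.

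Bax and Bcl2l1, which promote and oppose apoptosis, overlapped, with log2 differences of -0.09 (SE 0.13) and -0.19 (SE 0.14). Lower at an unadjusted p under 0.05 were 4 members, where 2.8% of all genes were. Without A10-FMT mouse 1 this count was 2, where 2.56% of all genes were. The median was 0.03 without Con-FMT mouse 1.

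Enzymes of drug and hormone metabolism were mostly above 0, in 26 of 30, 30 of 36 and 16 of 20 genes of the lists that follow. Of 30 tested cytochrome P450 genes and their regulators 2 were higher without overlap, of 36 conjugation enzymes 5, and of 20 steroid hormone enzymes 6, where 2.96% of all genes were, and none of these was lower without overlap. For the P450 list this is near the share of all genes. Con-FMT mouse 2 was the lowest of the 6 mice in 20 of the 30 P450 and 17 of the 36 conjugation genes. The medians were 0.14, 0.12 and 0.19. Cyp1a2, which oxidises caffeine and aromatic amines in pericentral hepatocytes, was 728, 772 and 605 RPKM in A10-FMT and 453, 319 and 389 RPKM in Con-FMT, a log2 difference of 0.87 (SE 0.16, limma unadjusted p = 0.000976, adjusted p = 0.718). Con mice held 376 to 428 RPKM, the level of the Con-FMT mice, and STZ mice 1 to 3 held 568, 250 and 395 RPKM.

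Por, the reductase that feeds electrons to all microsomal P450 enzymes, was 202, 291 and 339 RPKM against 202, 124 and 193 RPKM, so A10-FMT mouse 1 and Con-FMT mouse 1 were level although by a small margin they did not overlap. Cyp1a1, a target of the aryl hydrocarbon receptor, was 1.16 to 2.47 RPKM in A10-FMT and 0.36 to 1.37 RPKM in Con-FMT with overlap. Without Con-FMT mouse 1 the P450 list had a median of 0.39 and 12 members higher without overlap, where 15.7% of all genes were and their median was 0.02. In all 3 numbered pairs 6 of its members were higher under the replicate block (8.44% of all genes), and after median-ratio scaling 5 were free of overlap (5.31% of all genes higher).

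Ugt1a1, which conjugates bilirubin, was 178, 172 and 196 RPKM against 162, 110 and 137 RPKM, a log2 difference of 0.43 (SE 0.15). Ugt1a5 and Ugt1a9 had log2 differences of 0.63 (SE 0.17) and 0.34 (SE 0.11). These transcripts share their last exons with Ugt1a1, so their counts are not independent. Gstm6, a glutathione transferase with close paralogs, had a log2 difference of 0.30 (SE 0.09). Akr1c14 and Akr1c20, reductases of steroid hormones, had log2 differences of 0.38 (SE 0.12) and 0.37 (SE 0.12). With the replicate block 11 conjugation enzymes were higher in all 3 pairs, where 8.44% of all genes were. Of the 20 steroid hormone enzymes 3 were higher without overlap after median-ratio scaling (5.31% of all genes). After quantile normalization 2 were (4.75%), and after median centring 4 (5.69%). Conjugation enzymes higher without overlap numbered 11 without A10-FMT mouse 1 (5.67% of all genes), 10 without Con-FMT mouse 3 (4.56%) and 9 without Con-FMT mouse 1 (15.7%).

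Bile acid genes were mixed. Cyp7a1, the rate-limiting enzyme of bile acid synthesis, was 75.7, 65.0 and 90.7 RPKM in A10-FMT and 72.0, 27.8 and 40.1 RPKM in Con-FMT, a log2 difference of 0.81 (SE 0.32, limma unadjusted p = 0.0366, adjusted p = 0.999). Con-FMT mouse 1 overlapped with the A10-FMT mice, and without it the log2 difference was 1.17. Con mice held 24.3 to 30.7 RPKM and STZ mice 1 to 3 held 75.5, 25.5 and 25.1 RPKM.

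Nr1h4, the bile acid receptor FXR, was 82.1, 80.3 and 88.8 RPKM against 78.6, 62.1 and 55.1 RPKM, a log2 difference of 0.37 (SE 0.14). Its target Slc51b, an exporter of bile acids to the blood, was lower, at 1.81, 2.23 and 0.60 RPKM against 3.36, 2.53 and 2.47 RPKM. The canalicular exporter Abcb11 was also lower, at 97.6, 79.9 and 77.8 RPKM against 99.8, 99.3 and 107 RPKM. Of 28 tested genes of the list 2 were higher and 2 lower without overlap, where 2.96% and 6.03% of all genes were. Beside Nr1h4, Cyp7b1 was the other higher one. Cyp8b1 and Nr0b2 (SHP) overlapped, with log2 differences of 0.18 (SE 0.28) and -0.19 (SE 0.31).

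Immune genes gave a pattern that rested on single mice. Of 42 tested interferon-stimulated genes 4 were higher and none lower without overlap, where 2.96% and 6.03% of all genes were, and the median was 0.19. Ifit3, which restrains viral RNA, was 6.23, 5.17 and 5.71 RPKM in A10-FMT and 4.54, 3.72 and 3.83 RPKM in Con-FMT, a log2 difference of 0.42 (SE 0.10, limma unadjusted p = 0.00421, adjusted p = 0.958). Apol9a and Usp18 had log2 differences of 0.58 (SE 0.17) and 0.44 (SE 0.15). A10-FMT mouse 1 had the highest value in 30 of the 42 genes. Without that mouse the median was 0.06 and 5 members were lower without overlap, where 12.1% of all genes were. Without A10-FMT mouse 2 or without Con-FMT mouse 2, 12 members were higher, where 7.42% and 5.27% of all genes were. The count was 8 without Con-FMT mouse 1 (15.7% of all genes), and with the replicate block 9 members were higher in all 3 pairs (8.44%).

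H2-Q10, a class I molecule secreted by liver and a member of a family of close paralogs, was 702, 732 and 619 RPKM against 526, 583 and 501 RPKM, a log2 difference of 0.35 (SE 0.12). It was 1 of 3 antigen presentation genes higher without overlap among 23, where 2.96% of all genes were. The others were the proteasome activators Psme1 and Psme2, and H2-D1 was lower, where 6.03% of all genes were. Acute phase genes lay on the other side, with 22 of 27 below 0 and a median of -0.24. Lower without overlap were 3, where 6.03% of all genes were. Itih3, a hyaluronan-binding inhibitor chain, was 370, 280 and 323 RPKM against 424, 485 and 379 RPKM. Lbp, the plasma protein that carries endotoxin to its receptor, was 49.2, 32.2 and 47.1 RPKM against 51.4, 74.6 and 54.1 RPKM. Con-FMT mouse 2 had the highest value in 19 of the 27, and without it the median was -0.11. Without Con-FMT mouse 1 the number lower without overlap was 12, where 10.1% of all genes were, and without A10-FMT mouse 1 it was 11, where 12.1% were. After each of the 3 scalings it was 1, where 4.22% to 4.94% of all genes were. Serpina3m, a serine protease inhibitor, was the other member with all 6 mice, at -0.12 on the log2 scale.

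S100a9, a neutrophil marker, was 0.36, 0.55 and 0.54 RPKM in A10-FMT and 1.14, 3.53 and 1.56 RPKM in Con-FMT, and the 8 neutrophil markers summed to 1.76 to 4.39 RPKM and 4.03 to 9.01 RPKM. Of these, Ly6g, Mpo, Camp and Ngp were listed at 0 in at least 1 of the 6 mice. The 12 Kupffer cell and macrophage markers summed to 111 to 293 RPKM and 174 to 260 RPKM, which overlapped. All 9 sinusoidal endothelial markers lay below 0 with a median of -0.15, none of them free of overlap, and they summed to 49.3 to 83.1 RPKM and 65.4 to 84.4 RPKM. The 12 T and NK cell markers summed to 2.43 to 4.49 RPKM over all 6 mice, and the 6 adipocyte markers to at most 0.62 RPKM. Acta2, a marker of activated stellate cells and smooth muscle, was 1.56, 1.44 and 1.5 RPKM against 0.79, 0.63 and 1.05 RPKM, while the list of stellate cell and fibroblast markers summed to 120 to 129 RPKM and 85.7 to 170 RPKM.

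Globin messages, which mark red cells left in the tissue, were highest in Con-FMT mouse 1. The 7 erythroid markers summed to 1401, 2168 and 2863 RPKM in A10-FMT and 9168, 2344 and 3336 RPKM in Con-FMT. Hba-a1, one of near-identical alpha globin copies, was lower in all 3 A10-FMT mice, but A10-FMT mouse 3 at 2214 RPKM and Con-FMT mouse 2 at 2214 RPKM were level. The part of blood content in the other results of Con-FMT mouse 1 was not tested.

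The SD among the 3 Con-FMT mice was mostly larger than among the A10-FMT mice, but Con-FMT mice 2 and 3 were 30.5 apart in Euclidean distance over all tested genes, within the range of 26.4 to 30.7 among A10-FMT mice. On the log2 scale the median SD over genes was 0.11 among A10-FMT mice and 0.14 among Con-FMT mice, and the SD was larger in Con-FMT in 61.8% of genes. An SD of 1 or more was found for 37 genes among the A10-FMT mice and for 90 among the Con-FMT mice.

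Mup7, a major urinary protein gene, was 1442, 1900 and 1520 RPKM in A10-FMT and 59.1, 3448 and 2205 RPKM in Con-FMT. Con mice held 19118 to 35381 RPKM. The A10-FMT mice lay between Con-FMT mouse 1 and the other Con-FMT mice, and below all Con mice. Mup copies are nearly identical, so the split among them is uncertain, and the Mup family as a whole took 7.90%, 12.3% and 5.65% of RPKM in A10-FMT and 2.77%, 16.4% and 14.3% in Con-FMT.

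Cyp4a14, a fatty acid hydroxylase driven by PPAR alpha, was 143, 102 and 141 RPKM in A10-FMT and 473, 44.8 and 271 RPKM in Con-FMT. Lepr, the leptin receptor, was 2.99, 2.44 and 4.45 RPKM against 9.29, 1.14 and 5.15 RPKM. In both genes the Con-FMT mice enclosed all A10-FMT mice, with Con-FMT mouse 2 nearest to the Con mice, whose Cyp4a14 was 0.20 to 0.57 RPKM and Lepr 0.14 to 0.17 RPKM. STZ mice 1 to 3 held 885, 1111 and 409 RPKM of Cyp4a14 and 46.3, 42.1 and 21.7 RPKM of Lepr.

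Female-biased genes varied within A10-FMT. Sult3a1, a sulfotransferase typical of female liver, was 187, 0.63 and 11.9 RPKM in A10-FMT and 13.8, 0.39 and 0.40 RPKM in Con-FMT. Of 18 tested female-biased genes none was free of overlap, although their median was 0.60. A10-FMT mouse 1 had the highest value in 11, Con-FMT mouse 2 had the lowest in 12, and without A10-FMT mouse 1 the median was -0.02. With the replicate block 6 were higher in all 3 pairs, where 8.44% of all genes were. The male-biased list had a median of 0.28, which became -0.45 without Con-FMT mouse 1, with 9 members then lower without overlap, where 10.1% of all genes were. With all 6 mice 1 member was higher, Cyp7b1, an oxysterol hydroxylase, at 0.79 on the log2 scale, and with the replicate block 5 were higher in all 3 pairs. Ces2h, a carboxylesterase, was 34.2, 26.4 and 39.4 RPKM in A10-FMT and 0.09, 22.9 and 6.76 RPKM in Con-FMT.

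**Figure D4:**
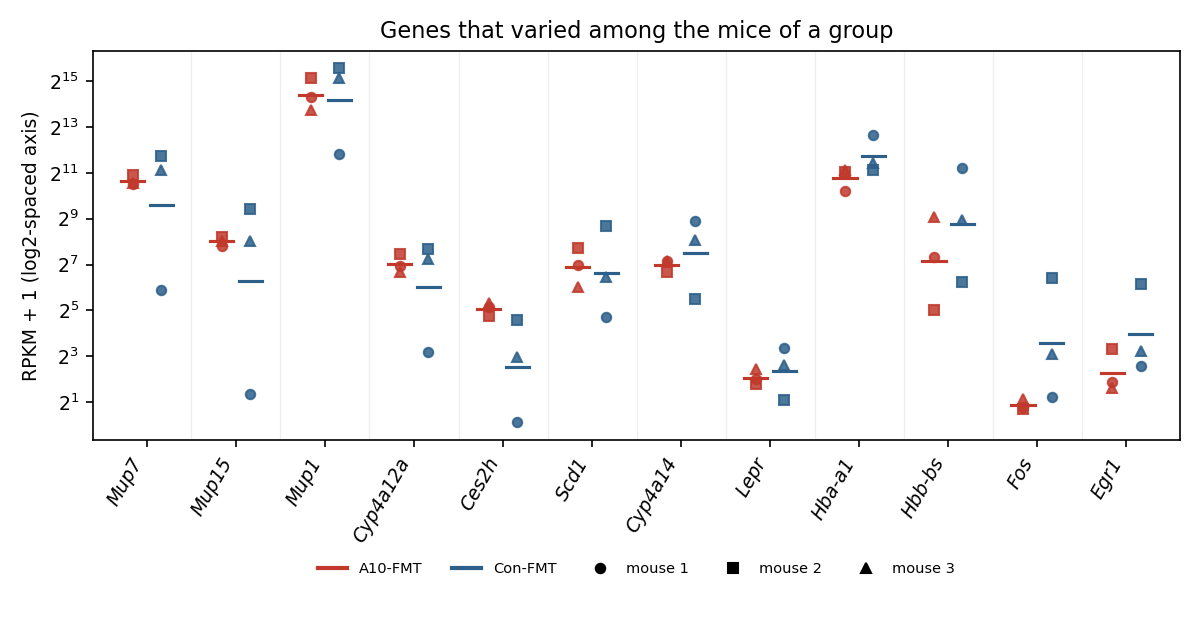
RPKM plus 1 of genes that varied widely among mice, chosen after their values were seen, is shown on a log2-spaced vertical axis with a symbol for each mouse number, A10-FMT in red and Con-FMT in blue, and a bar at the mean of the log2 values. Con-FMT mouse 1 is lowest for Mup7, Mup15, Mup1, Cyp4a12a, Ces2h and Scd1 and highest for Cyp4a14, Lepr, Hba-a1 and Hbb-bs.

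Lists of glucose, oxidative and antioxidant genes had medians near 0. In many oxidative genes Con-FMT mice 1 and 2 lay on opposite sides. Of 25 tested genes of glucose and glycogen metabolism 1 was higher without overlap and none lower, where 2.96% and 6.03% of all genes were. It was Gys2, the liver glycogen synthase, at 73.7, 83.1 and 109 RPKM against 73.1, 51.0 and 50.2 RPKM. A10-FMT mouse 1 and Con-FMT mouse 1 were close. Pck1 and G6pc, the enzymes of gluconeogenesis, had log2 differences of 0.32 (SE 0.27) and -0.36 (SE 0.19) with overlap. Igfbp1, which insulin represses, had a log2 difference of 0.00 with a 95% interval from -1.01 to 1.01. Foxo3, a factor held outside the nucleus by insulin signalling, was higher without overlap at 0.35 (SE 0.10).

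Of 40 tested PPAR alpha targets and oxidation genes none was free of overlap, where 2.96% of all genes were higher and 6.03% lower. Con-FMT mouse 1 was the highest of the 6 mice in 30 of the 40, and Con-FMT mouse 2 the lowest in 26. Without Con-FMT mouse 1 the median went from -0.03 to 0.13, with 7 higher without overlap (15.7% of all genes). Without Con-FMT mouse 2 it was -0.23, with 11 lower (15.6% of all genes). Acot3 and Acot4, peroxisomal thioesterases, had log2 differences of 1.42 (SE 0.56) and 0.58 (SE 0.21), and Cd36, a fatty acid receptor, -0.47 (SE 0.18). Cpt1a and Cyp4a10 had log2 differences of 0.10 (SE 0.23) and -0.27 (SE 0.60). Fgf21 was at 0.08 to 1.21 RPKM over the 6 mice and fell under the filter.

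Sod1, Sod2, Sod3 and Cat, the superoxide dismutases and catalase, had log2 differences of 0.04 (SE 0.13), 0.00 (SE 0.13), -0.25 (SE 0.29) and 0.09 (SE 0.12). Of all 27 tested antioxidant genes 1 was higher and none lower without overlap, where 2.96% and 6.03% of all genes were. Without Con-FMT mouse 1, 11 were higher, where 15.7% of all genes were, and 1 was lower, where 10.1% were. The alanine aminotransferase Gpt was 168, 179 and 182 RPKM against 203, 165 and 162 RPKM. Id1, a target of BMP signalling, had a log2 difference of 0.10 (SE 0.18). Igf1 was 117, 116 and 121 RPKM against 113, 107 and 115 RPKM, which did not overlap yet differed by only 0.08 on the log2 scale (SE 0.08).

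All 34 respiratory chain genes and all 40 cytosolic ribosomal protein genes overlapped between the groups, with medians of -0.05 and 0.01. Con-FMT mouse 1 was the highest of the 6 mice in all 34 and in 25 of the 40. Without Con-FMT mouse 1, 9 and 5 were higher without overlap (medians 0.09 and 0.07), where 15.7% of all genes were. Without Con-FMT mouse 2, 11 and 13 were lower (medians -0.17 and -0.07), where 15.6% of all genes were. The glucocorticoid list held 2 lower genes without overlap among 15, where 6.03% of all genes were. These were Zbtb16 and Klf9, both induced by glucocorticoids, with log2 differences of -0.62 (SE 0.17) and -0.33 (SE 0.09). Klf9 in A10-FMT, at 14.3 to 15.9 RPKM, was at the level of Con mice, 14.5 to 16 RPKM, while Con-FMT mice held 18.4 to 20.8 RPKM and STZ mice 1 to 3 held 25.9, 32.6 and 24.7 RPKM. Stress response genes had a median of -0.12 and 1 of 25 lower without overlap, Atf4, at -0.11, where 6.03% of all genes were. After each of the 3 other scalings none was lower and 1 was higher, and without Con-FMT mouse 3, the highest of the 6 mice in 12 of the 25, the median was -0.03. Without Con-FMT mouse 1, 10 were lower without overlap, where 10.1% of all genes were. Atf3 and Ddit3, factors of that response, overlapped with log2 differences of -0.50 (SE 0.20) and -0.47 (SE 0.19).

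Of the remaining lists, amino acid catabolism held Gldc, the glycine decarboxylase, as its only member free of overlap among 29. Gldc was 53.5, 40.6 and 39.9 RPKM against 76.7, 54.3 and 56.2 RPKM. Con-FMT mouse 1 was the highest of the 6 mice in 25 of the 29. Without that mouse 12 were higher without overlap, where 15.7% of all genes were, and 1 was lower, where 10.1% were. Lipoprotein genes had 1 higher and 1 lower of 27, the latter being Lrp1, a receptor for remnants, with a log2 difference of -0.26 (SE 0.09). Iron genes had 1 lower of 21, Slc11a2, an iron transporter, at -0.20 (SE 0.08). Cell cycle genes, of which 10 of 28 passed the filter, had 2 lower. Tyms, the thymidylate synthase, had a log2 difference of -0.17, and Mcm7, a subunit of the replicative helicase, was 3.86, 4.29 and 4.78 RPKM against 5.40, 5.43 and 6.24 RPKM. Endotoxin and NF-kB genes had 1 higher and 2 lower of 18. These were Tlr5, a flagellin receptor, at 0.23, Rela, the p65 subunit, at -0.22 (SE 0.08), and Lbp. Over all genes 2.96% were higher and 6.03% lower without overlap.

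**Figure D5:**
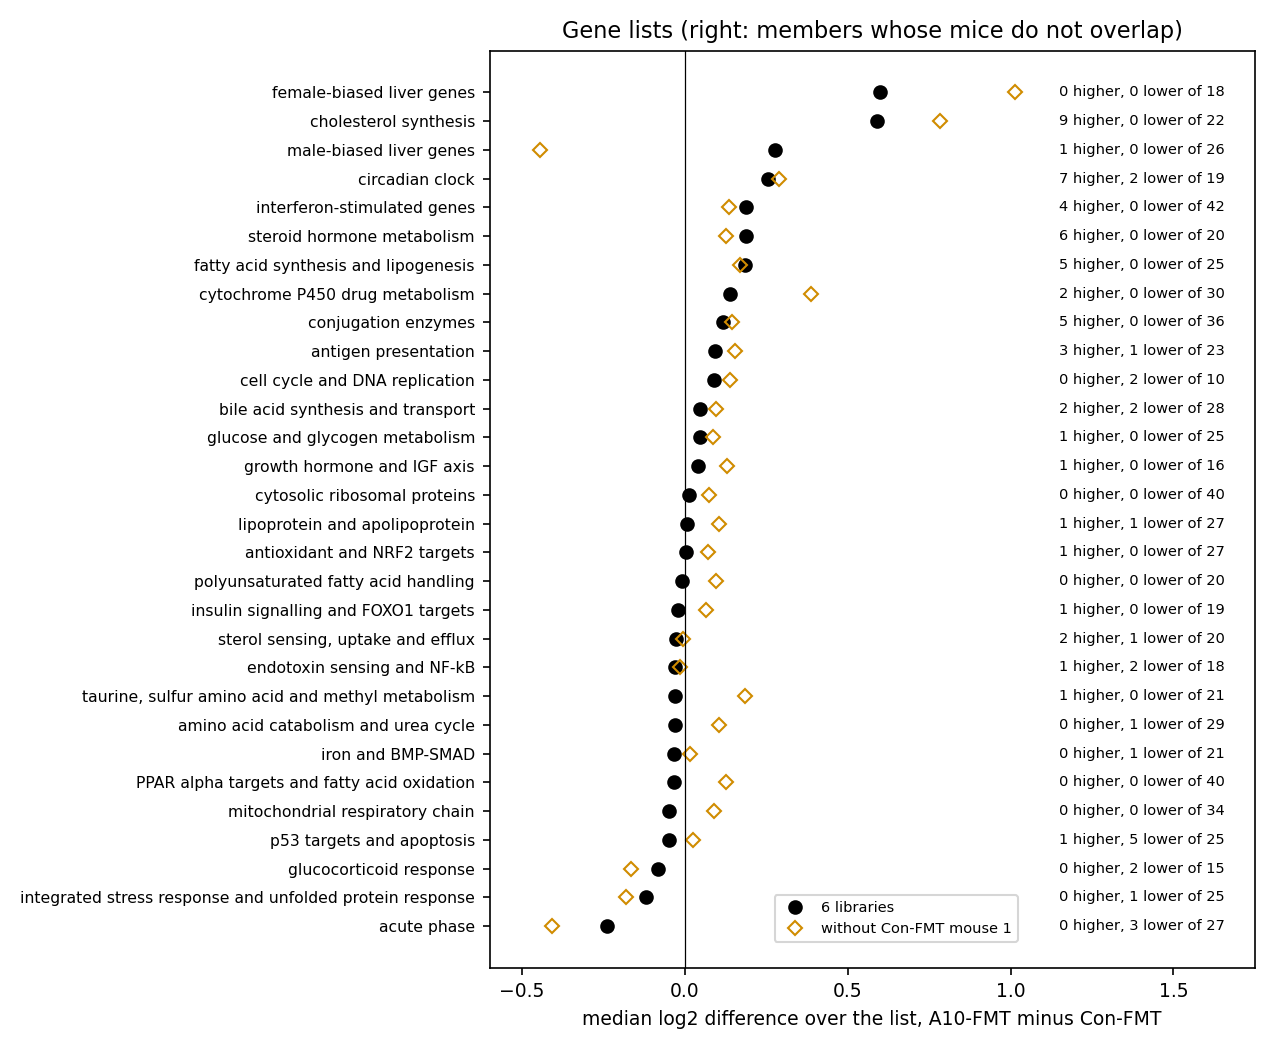
The median log2 difference, A10-FMT minus Con-FMT, is shown for the tested members of each of the 30 gene lists, as black circles with all 6 libraries and as open diamonds without Con-FMT mouse 1. Counts at the right give members without overlap with all 6 libraries, where cholesterol synthesis has 9 higher and the circadian clock 7 higher and 2 lower, and the male-biased list crosses from 0.28 to -0.45.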

How the data were processed

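Liver RNA of 18 libraries was sequenced by the authors after selection of polyadenylated RNA, and per the labels reads were mapped with Bowtie 0.12.2 to mouse build mm10, while the published methods name SOAPaligner. The deposited table gives RPKM per gene symbol for each library, computed by the authors from reads per gene, gene length and mapped reads. Strand use in counting is not given in the sources used here, so antisense overlaps cannot be told apart. The table holds 26 symbols turned into dates and 3 repeated symbols, which were kept as separate rows. Read depth is unknown.

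Values were analysed as log2(RPKM + 1) with limma 3.58.1 in R 4.3.3 (lmFit and eBayes with trend, two-sided, Benjamini-Hochberg over all tested genes), on A10-FMT and Con-FMT libraries only. RPKM is no count, so no count model was used. Fold changes on this scale understate those of low genes. Standard errors and 95% intervals come from that fit. Each list is described by counts and its median, without a set test. Members and lists were chosen with earlier results of these data known. Genes were named if called (at most 10 each way), if among the 10 each way with the smallest p, a log2 difference of 1 or more, no overlap and a mean of 2 RPKM or more in the higher group, if among the 4 smallest p-values under 0.05 of a list, or if on a fixed list of metabolic genes. Further members of the clock and cholesterol lists, the genes of the plot of variable genes, and members that complete a small count in a list, were named after their values were seen. Replicate numbers come from the titles, which do not say what they mark. Deviations from the group mean correlated at 0.119, 0.295 and 0.179 between mice 1, 2 and 3 of the groups. Between mice of unlike number the correlation ran from -0.256 to 0.117, the highest for A10-FMT mouse 3 with Con-FMT mouse 1. The numbers were treated as pairing the mice in the replicate block, which thus rests on a weak pattern in these same data. Alternatives were 3 scalings, a pseudocount of 0.1, 2 filters, models with 12 or 18 libraries, limma without trend, the block, and leaving out each mouse. The code was tested on artificial data with known differences. Gene positions are from GENCODE M21 by symbol, and promoters from RefSeq GRCm38.p6. Some genes that the rule names are not reported here.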

Additional observations from a re-analysis of the deposited data

How the results depend on the processing

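No gene was called under any alternative except without Con-FMT mouse 1, where 1 gene was (0 to 1 over the 6 fits that leave out a mouse). An unadjusted p under 0.05 was reached by 730 genes of 16989 with no filter, 292 with 12 libraries in the model and 229 with 18, and between 342 and 897 when a mouse was left out. Genes without overlap on the higher side numbered 547, 489 and 586 under median-ratio scaling, quantile normalization and median centring and 465 with no filter. Leaving out a mouse gave 470 to 1615 higher and 990 to 1612 lower genes, where 5 mice overlap less often by construction. With the replicate block 870 genes were higher and 1647 lower in all 3 pairs, by construction a weaker requirement than no overlap among 6 mice, and the block changed no other call. Of the log2 differences of named genes, none of them called with all 6 mice, 38 values changed sign, 1988 kept their sign and stayed uncalled, and 1 kept its sign and was called, that of Hist1h2br without Con-FMT mouse 1. Fads1 was at 0.0049 after median-ratio scaling and 0.0103 after median centring, Gpt at -0.0242 and Sod2 at -0.0125 after quantile normalization. Over the fits that leave out a mouse the log2 difference of Bax ran from -0.16 to 0.0264, Cpt1a from -0.14 to 0.37, Cyp4a10 from -0.965 to 0.31, Cyp4a14 from -1.49 to 0.20, Cyp8b1 from -0.10 to 0.49, Fads1 from -0.15 to 0.13 and Fads2 from -0.0218 to 0.45. Gpt ran from -0.0545 to 0.11, Id1 from -0.0584 to 0.28, Igfbp1 from -0.25 to 0.43, Lepr from -0.92 to 0.22, Nr0b2 from -0.51 to 0.0549, Nr1d1 from -0.37 to 0.33, Scd1 from -0.65 to 1.32 and Sod1 from -0.0135 to 0.12. Sod2 ran from -0.094 to 0.15, Srebf1 from -0.295 to 0.33, Srebf2 from -0.10 to 0.34, Mup1 from -0.95 to 0.91, Mup15 from -0.69 to 3.335 and Mup7 from -0.78 to 2.14. Single values per mouse and list counts without a mouse were added after seeing the data. Where an alternative changed a value for no reason given here, the cause was not tested. Depth is unknown, so what it limits cannot be stated.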
